A study of Mus musculus with 6 samples.

Results

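The genes described here mark resident tissue macrophages and macrophages in the alternatively activated state. They were selected by symbol from the deposited gene table, and all 10 listed symbols were found among its 56748 genes: Mrc1, Cd163, Lyve1, F13a1, Folr2, Timd4, Retnla, Chil3, Arg1 and Clec10a. The libraries came from aortas of 6-month-old mice, 3 of them lacking soluble ST2 (sST2-KO) and 3 wild-type littermates (WT). Animals of both groups were labelled as deficient in apolipoprotein E (ApoE-KO) and had received angiotensin II from an osmotic minipump for 28 days, a model of aortic disease. Soluble ST2 is the secreted product of Il1rl1 that binds the cytokine IL-33. The labels do not name the allele or the cells in which it is deleted, and no group without angiotensin II was analysed here. Whole aortas were sequenced, so fewer macrophages and less RNA of a gene per macrophage cannot be told apart.

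Resident macrophages of the arterial wall sit largely in the adventitia, and many of them are set apart by LYVE1, the folate receptor FOLR2, the mannose receptor and the haemoglobin scavenger receptor CD163. Alternative activation is the macrophage response to IL-4 and IL-13, which signal through the transcription factor STAT6 and induce Retnla, Chil3 and Arg1 in mice. IL-33 acts upstream of this response, because it drives mast cells and innate lymphoid cells that carry membrane ST2 to release IL-13 and other type 2 cytokines.

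Levels are given as CPM, counts scaled to library size, after TMM normalization for library composition, and differences as log2 changes of sST2-KO over WT with their standard error (SE). Totals were 15615658 to 17988552 counts per library, and 3 counts, the limit that a count of 0 allows, correspond to 0.148 to 0.239 CPM. Il1rl1 had 2.39, 2.82 and 4.86 CPM in sST2-KO aortas and 2.81, 9.49 and 4.35 CPM in WT aortas (log2 change -0.72, SE 0.54, edgeR adjusted p = 0.594); the value adds the soluble and the membrane isoform and checks the genotype only weakly. Apoe had 172, 86.7 and 145 CPM in sST2-KO aortas and 15.1, 11.6 and 507 CPM in WT aortas, so counts were assigned to it in every library despite the labelled deficiency. The 507 CPM were in WT replicate 3, described next as holding liver transcripts; without it every WT value lay below every sST2-KO value. Some libraries stood apart from the rest in ways that touch the results. Airway transcripts were abundant in sST2-KO replicate 2 and liver transcripts in WT replicate 3. Mitochondrially encoded genes took 7.08% of counts in sST2-KO replicate 2 and 37.8% in WT replicate 2, against 18.4% to 23.7% in the others. For the 10 genes, results that rest on these libraries are given with and without them. The labels describe 3 mice a group and do not say whether RNA was pooled or which batch a library belonged to.

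Most of these macrophage genes were at lower levels in sST2-KO aortas, but none passed edgeR's test. Of the 10 genes, 9 had lower fitted levels in sST2-KO aortas and 1, Retnla, had a higher one, where 46.5% and 53.5% of all 16377 genes tested had lower and higher ones. For 6 genes every sST2-KO library lay below every WT library: Mrc1, Cd163, Lyve1, F13a1, Folr2 and Arg1. That held for 10% of all genes tested (1644 genes), and the opposite order, which 0 of the 10 genes showed, held for 9.09%. No gene passed the threshold of 0.05 in edgeR's quasi-likelihood test after adjustment over all genes tested: 0 of 10 here and 0 of 16377 in all, or 0% of the table in each direction. Adjusted p-values of the 10 genes ran from 0.339 to 0.645. At an unadjusted p under 0.05 there were 7 genes lower and 0 higher, against 5.95% of all genes tested lower and 5.08% higher. The median log2 change over the 10 genes was -0.86, while that over all tested genes was 0.042. DESeq2 called Cd163 (adjusted p = 0.0215) and Mrc1 (adjusted p = 0.0336) lower, where it called 1.36% of all genes lower, and limma-voom called 0 of the 10. Genes of other lists were also called lower by DESeq2, among them core macrophage genes, as given below. Without sST2-KO replicate 2 and WT replicate 3 together, all 10 log2 changes were negative, with a median of -0.94. The remaining sST2-KO libraries then lay below the remaining WT libraries for 8 of the 10 genes, as they did for 21.9% of all genes tested.

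**Figure D1:**
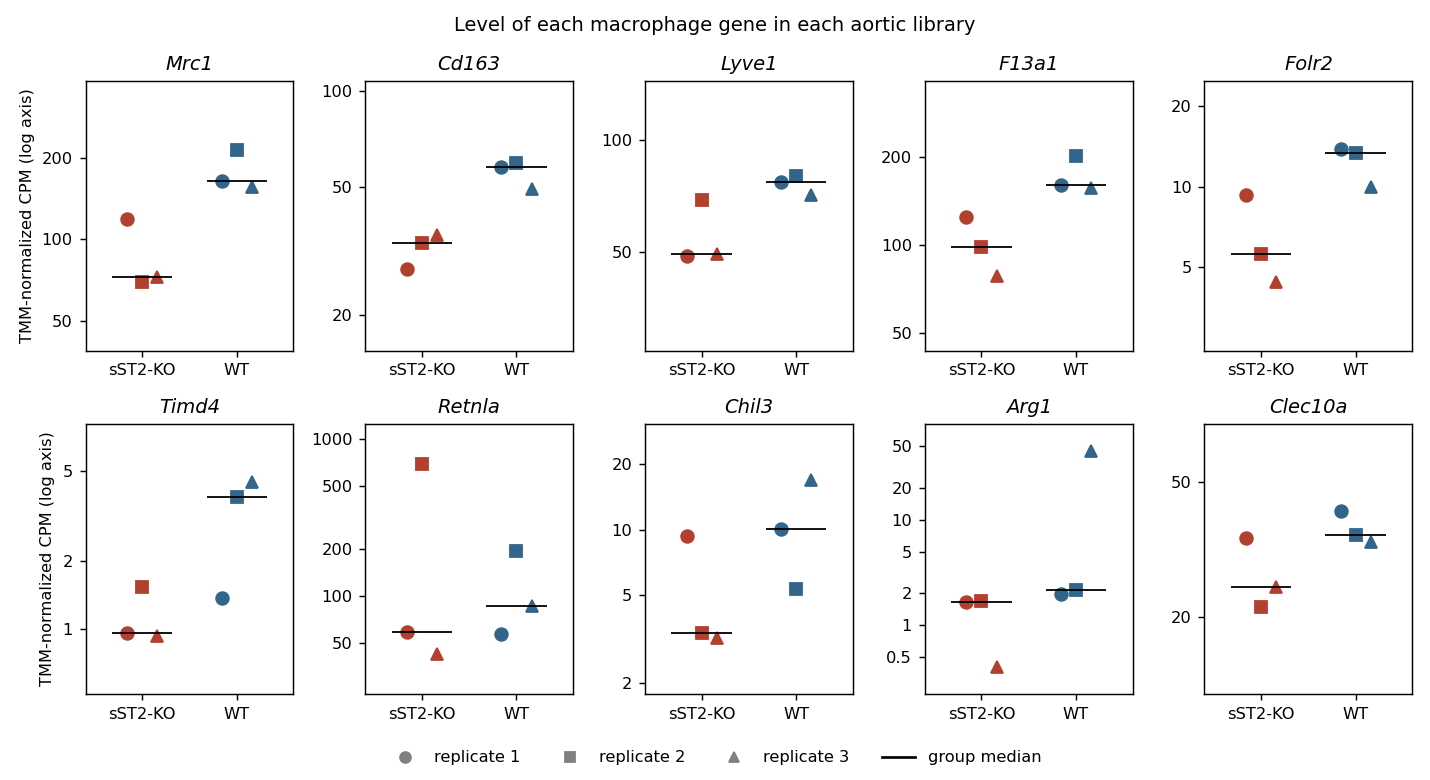
TMM-normalized CPM of each of the 10 genes (log axis, own scale in each panel) in the 3 sST2-KO and 3 WT libraries, with marker shapes for replicates and a bar at the group median. For Mrc1, Cd163, Lyve1, F13a1, Folr2 and Arg1 every sST2-KO point lies below every WT point, and single libraries stand far above the rest for Retnla (689 CPM) and Arg1 (45.1 CPM).

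Mrc1 encodes the mannose receptor CD206, an endocytic receptor for glycoproteins and a common marker of resident and alternatively activated macrophages (ENSMUSG00000026712, chromosome 2, 14234203 to 14336868, mm39). It had 119, 69.8 and 72.6 CPM in sST2-KO replicates 1 to 3, against 165, 214 and 156 CPM in WT replicates 1 to 3. All sST2-KO libraries lay below all WT libraries, and the means were 87.1 ± 27.5 CPM in sST2-KO and 178 ± 31.1 CPM in WT (SD, n = 3 each). Its log2 change of -1.03 (SE 0.26, 95% interval -1.66 to -0.41) did not pass in edgeR (adjusted p = 0.386). It was -0.98 without sST2-KO replicate 2 and WT replicate 3. The miRNA gene Mir511, which lies inside Mrc1 on the same strand, had a count of 0 in all 6 libraries.

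Cd163 encodes the scavenger receptor that clears haemoglobin bound to haptoglobin (ENSMUSG00000008845, chromosome 6, 124281615 to 124307486, mm39). It had 27.8, 33.4 and 35.4 CPM in sST2-KO replicates 1 to 3, against 57.6, 59.5 and 49.3 CPM in WT replicates 1 to 3. The groups stood clear of each other, and the spread within each was small, with the highest library 1.27 times the lowest in sST2-KO and 1.21 times in WT. Its log2 change of -0.78 had the smallest standard error of the 10 genes (SE 0.17, 95% interval -1.18 to -0.39; edgeR adjusted p = 0.339). Without the libraries with airway and liver transcripts it was -0.89. A lncRNA gene of the opposite strand that overlaps Cd163 had 0 to 12 counts.

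Lyve1 encodes a hyaluronan receptor carried by adventitial macrophages and by lymphatic endothelium (ENSMUSG00000030787, chromosome 7, 110449814 to 110462446, mm39). It had 48.9, 69.1 and 49.6 CPM in sST2-KO replicates 1 to 3, against 77.2, 80.1 and 71.1 CPM in WT replicates 1 to 3. The groups were close together, since 69.1 CPM in sST2-KO replicate 2 lay just under 71.1 CPM in WT replicate 3. The log2 change was -0.45 (SE 0.18, edgeR adjusted p = 0.451), and -0.63 without sST2-KO replicate 2. Markers of lymphatic endothelium were present in every library: the summed level of 7 such genes was 232 to 443 CPM in sST2-KO and 296 to 394 CPM in WT, and 0 of 7 were at 0 in any library. The one with the lowest p was the transcription factor gene Prox1. It averaged 4.05 ± 0.54 CPM in sST2-KO and 9.58 ± 5.12 CPM in WT (SD, n = 3 each). Single libraries had 4.03, 4.60 and 3.53 CPM in sST2-KO and 8.99, 4.78 and 14.97 CPM in WT. The highest value was in WT replicate 3, the library with liver transcripts. WT replicate 2 lay just above sST2-KO replicate 2. The change of Prox1 was not taken without WT replicate 3. Prox1 was the only one of the 7 that separated the groups, lower in sST2-KO, as 10% of all genes tested did. Of the 7 log2 changes, 5 were negative and 2 positive, with a median of -0.16 and 0 called by edgeR. The part of lymphatic vessels in the Lyve1 values was not tested.

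F13a1 encodes the catalytic subunit of coagulation factor XIII, made by resident macrophages and by megakaryocytes (ENSMUSG00000039109, chromosome 13, 37051152 to 37234220, mm39). It had 125, 98.8 and 78.5 CPM in sST2-KO replicates 1 to 3, against 161, 203 and 157 CPM in WT replicates 1 to 3. No sST2-KO library reached the lowest WT library, and the log2 change was -0.78 (SE 0.23, 95% interval -1.32 to -0.25; edgeR adjusted p = 0.416). Platelet and megakaryocyte genes were lower in the same libraries: the summed level of 10 such genes was 38.8 to 54.5 CPM in sST2-KO and 86.3 to 128 CPM in WT. The largest part of each sum was Pf4, at 33.0, 20.9 and 26.3 CPM in sST2-KO and 49.4, 32.1 and 46.2 CPM in WT, with overlap. The platelet chemokine Ppbp had 4.77, 3.27 and 6.85 CPM in sST2-KO and 23.3, 22.3 and 34.0 CPM in WT, and at most 1 of the 10 genes was at 0 in a library. All 9 platelet and megakaryocyte genes tested had negative log2 changes, with 0 called by edgeR. DESeq2 called Ppbp (adjusted p = 2.3e-07), Gp9 (0.0015), Tubb1 (0.0024) and Treml1 (0.026) lower, and no other gene of this list. Of the 9 platelet and megakaryocyte genes tested, 7 separated the groups, all lower, against 10% of all genes tested. The part of platelets and megakaryocytes in the F13a1 values was not tested.

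Folr2 encodes the beta folate receptor of resident macrophages (ENSMUSG00000032725, chromosome 7, 101489195 to 101506401, mm39). It had 9.32, 5.59 and 4.39 CPM in sST2-KO replicates 1 to 3, against 13.8, 13.4 and 9.96 CPM in WT replicates 1 to 3. The gap between the groups was narrow, with sST2-KO replicate 1 next to WT replicate 3. With 66 to 250 counts behind each value, the log2 change was -0.94 (SE 0.35, edgeR adjusted p = 0.442). A gene of the opposite strand, Gm10602, overlaps Folr2 and had 14 to 53 counts a library; reads of the pair cannot be told apart if strand was not used in counting.

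Timd4 encodes the phosphatidylserine receptor TIM-4, by which long-lived resident macrophages take up dying cells (ENSMUSG00000055546, chromosome 11, 46701627 to 46735159, mm39). It had only 14 to 75 counts a library. It had 0.966, 1.53 and 0.931 CPM in sST2-KO replicates 1 to 3, against 1.38, 3.83 and 4.47 CPM in WT replicates 1 to 3. The groups overlapped, because WT replicate 1 lay below sST2-KO replicate 2. Its log2 change was -1.48 (SE 0.55, edgeR adjusted p = 0.442). TIM-4 is also carried by Kupffer cells, the macrophages of the liver, and their lectin gene Clec4f, named here after its values were seen, had 8.11 CPM in WT replicate 3 and a count of 0 in the other 5 libraries. Kupffer cell genes summed to 211 to 624 CPM over 6 genes in sST2-KO and 234 to 497 CPM in WT. Most of each sum came from Cd5l, which is also among the further resident macrophage genes described below. Cd5l had 553, 182 and 272 CPM in sST2-KO and 447, 210 and 372 CPM in WT. The part of Kupffer cells in the Timd4 values was not tested. Without WT replicate 3 the log2 change of Timd4 was -1.16.

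**Figure D2:**
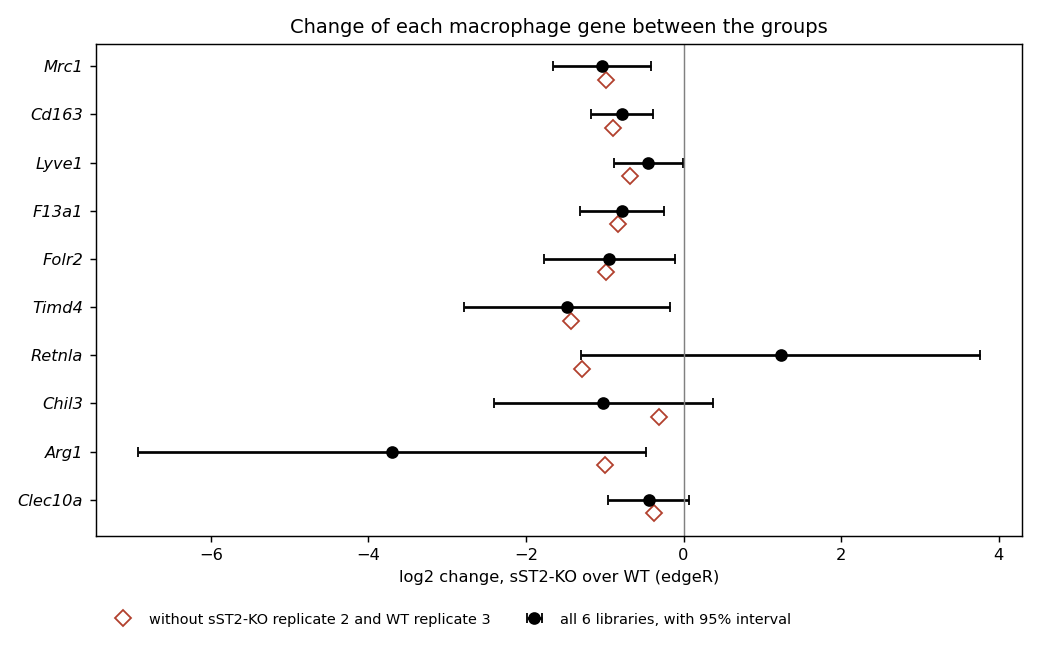
Log2 change of each gene, sST2-KO over WT, from edgeR with all 6 libraries (black points, bars for the 95% interval) and without sST2-KO replicate 2 and WT replicate 3 (open diamonds). The 6 resident markers, Mrc1 to Timd4, lie between -0.45 and -1.48 with all libraries, while Retnla moves from 1.23 to -1.29 and Arg1 from -3.70 to -1.0 when those libraries are left out.

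The remaining genes are those tied to alternative activation, and levels of Retnla, Chil3 and Arg1 varied widely within a group. The highest library was 2.94 to 22.7 times the lowest of its group for these genes, against 1.13 to 3.24 times for the 6 resident markers. Retnla encodes the secreted protein RELM alpha, also called FIZZ1, a STAT6 target of mouse macrophages that is also made by lung epithelium and adipose tissue (ENSMUSG00000061100, chromosome 16, 48662914 to 48664824, mm39). It had 59.0, 689 and 42.9 CPM in sST2-KO replicates 1 to 3, against 57.4, 193 and 86.8 CPM in WT replicates 1 to 3. The value of sST2-KO replicate 2 was 16.1 times the lowest of its group and 3.57 times the next library of all. Over all libraries the log2 change was 1.23 with a 95% interval of -1.31 to 3.77 (SE 1.07, edgeR adjusted p = 0.645). Without sST2-KO replicate 2 it was -1.13 (edgeR adjusted p = 0.403), so that 1 library set its direction. DESeq2 gave no adjusted p for Retnla.

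The library with 689 CPM of Retnla was the one with airway transcripts. Summed over 10 genes of airway and alveolar epithelium it had 35606 CPM, against 22.8 and 23.5 CPM in the other sST2-KO libraries and 35.0 to 44.1 CPM in WT. From 0 to 4 of the 10 genes were at 0 in a library. The club cell gene Scgb1a1 had 12598 CPM in sST2-KO replicate 2, and its highest value in any other library was 7.89 CPM. Cbr2, a carbonyl reductase of club cells that also marks resident macrophages and was named after its values were seen, had 3893 CPM there and 121 to 187 CPM elsewhere. Markers of alveolar macrophages were mixed. Plet1 had 74.3 CPM in sST2-KO replicate 2, against 0.227 and 0.665 CPM in the other sST2-KO libraries and 0.239 to 1.54 CPM in WT. Atp6v0d2, by contrast, had 29.3 CPM in sST2-KO replicate 2, against 74.9 and 49.4 CPM in the other sST2-KO libraries and 69.9 to 87.1 CPM in WT. The sum over 8 such genes was 115 CPM in sST2-KO replicate 2, 108 and 118 CPM in the other sST2-KO libraries and 97.6 to 133 CPM in WT, and 1 to 3 of the 8 were at 0 in a library, Ear1 in all of them. The second highest Retnla value, 193 CPM in WT replicate 2, stood beside 42.1 CPM of airway genes. White adipocyte genes summed to 590 CPM in sST2-KO replicate 2, against 3863 and 3805 CPM in sST2-KO replicates 1 and 3, and to 656 CPM in WT replicate 2, against 3355 and 2540 CPM in WT replicates 1 and 3. The part of airway and alveolar cells in the Retnla values was not tested.

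Chil3 encodes Ym1, a chitinase-like lectin of alternatively activated macrophages and of neutrophils (ENSMUSG00000040809, chromosome 3, 106054870 to 106074880, mm39). It had 9.37, 3.36 and 3.19 CPM in sST2-KO replicates 1 to 3, against 10.1, 5.34 and 16.8 CPM in WT replicates 1 to 3. The groups overlapped, and the log2 change was -1.02 (SE 0.59, 95% interval -2.40 to 0.37; edgeR adjusted p = 0.524). Without WT replicate 3 it was -0.54, and without sST2-KO replicate 1 it was -1.71. Neutrophil genes summed to 28.9 to 2153 CPM over 12 genes in sST2-KO and 90.8 to 308 CPM in WT, with 0 to 4 of 12 at 0 in a library. Of the 2153 CPM in sST2-KO replicate 2, 2074 CPM came from Ltf, the lactoferrin gene of neutrophils and glands. Lcn2, with the lowest p of the list, was the largest part of each WT sum. It had 21.4, 65.0 and 17.8 CPM in sST2-KO and 110, 69.1 and 108 CPM in WT. S100a9, a neutrophil calcium-binding protein named after its values were seen, had 22.6, 4.90 and 3.93 CPM in sST2-KO and 31.2, 6.22 and 60.1 CPM in WT. The part of neutrophils in the Chil3 values was not tested.

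Chil4, the close copy of Chil3 that encodes Ym2, had 39905 counts or 1974 CPM in sST2-KO replicate 2 and a count of 0 in the other 5 libraries. Of 50-base windows of the longest Chil3 transcript in the GENCODE set, 18.5% were also found in Chil4 transcripts, so reads from these stretches cannot be assigned to 1 copy. Chil3 itself had only 68 counts in that library, which bounds how many Chil4 reads can have been added to it.

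Arg1 encodes arginase 1, which splits arginine into ornithine and urea in alternatively activated macrophages and, in far larger amounts, in hepatocytes (ENSMUSG00000019987, chromosome 10, 24791119 to 24803382, mm39). It had 1.65, 1.68 and 0.399 CPM in sST2-KO replicates 1 to 3, against 1.99, 2.15 and 45.1 CPM in WT replicates 1 to 3. The value of WT replicate 3 was 20.9 times that of the next library, while the other WT libraries lay only just above the sST2-KO libraries. The resulting log2 change was -3.70 (SE 1.36; edgeR adjusted p = 0.442), and it was -0.72 without WT replicate 3 (edgeR adjusted p = 0.760). DESeq2 gave no adjusted p for Arg1.

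WT replicate 3 was the library with liver transcripts. Summed over 10 hepatocyte genes it had 8765 CPM, against 104 to 416 CPM in sST2-KO and 198 and 597 CPM in the other WT libraries, where most of the sum came from Cyp2e1. In WT replicate 3 none of the 10 was at 0, whereas 3 to 5 of 10 were in every other library. Alb, the gene of serum albumin, had 6206 CPM in WT replicate 3, with 3.83 CPM as its next highest value. Cps1, the carbamoyl phosphate synthetase that feeds the urea cycle in which arginase acts, was named after its values were seen; it had 146 CPM in that library, and 0.110 CPM was the highest value in any other. In the remaining 5 libraries Arg1 stayed between 6 and 36 counts. The part of liver cells in the Arg1 values was not tested.

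**Figure D3:**
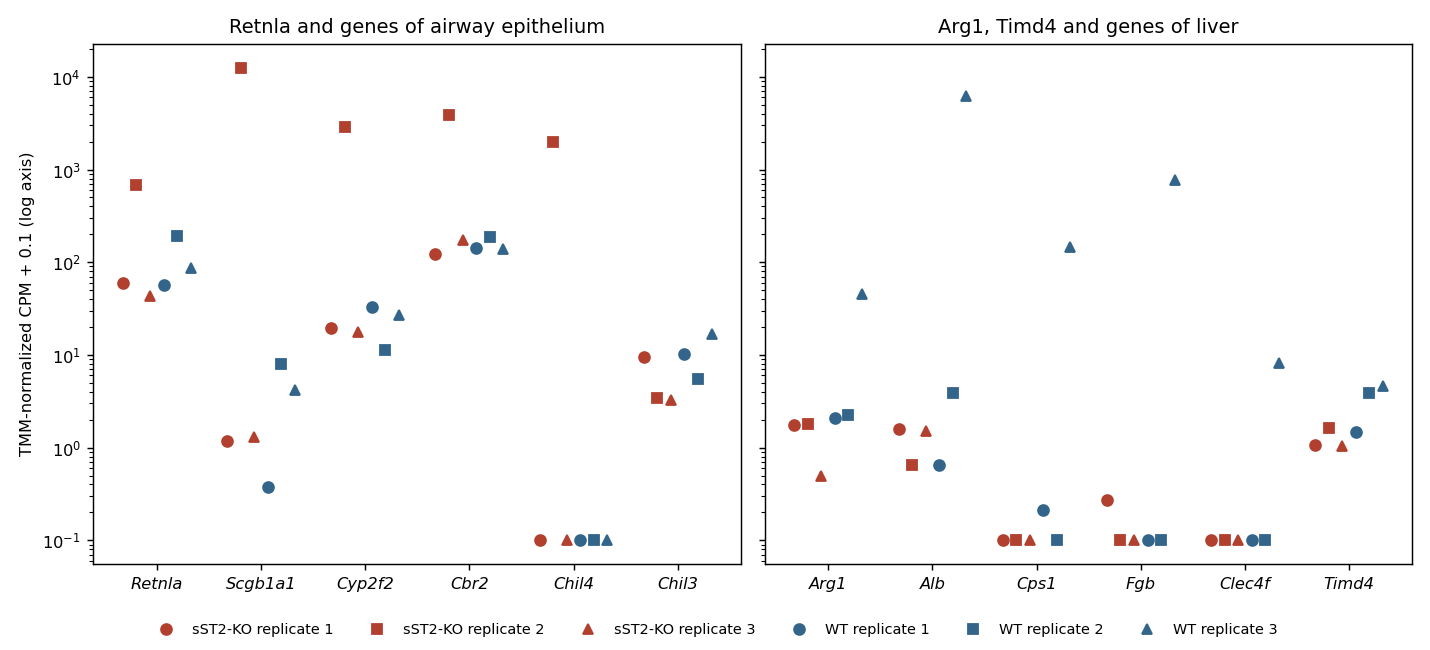
TMM-normalized CPM plus 0.1 (log axis) in each library for Retnla and Chil3 beside airway genes and Chil4 (left) and for Arg1 and Timd4 beside liver genes (right), with sST2-KO in red and WT in blue. The square of sST2-KO replicate 2 stands above the others for Retnla and the airway genes, and the triangle of WT replicate 3 for Arg1 and the liver genes.

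Clec10a encodes the galactose lectin MGL1 of alternatively activated macrophages and of conventional dendritic cells (ENSMUSG00000000318, chromosome 11, 70047023 to 70061660, mm39). It had 34.2, 21.4 and 24.5 CPM in sST2-KO replicates 1 to 3, against 41.0, 34.8 and 33.2 CPM in WT replicates 1 to 3. The groups overlapped by 1 library, with sST2-KO replicate 1 above WT replicate 3. Clec10a had a log2 change of -0.44 (SE 0.22, 95% interval -0.96 to 0.069; edgeR adjusted p = 0.486). Dendritic cell genes summed to 63.9 to 113 CPM over 10 genes in sST2-KO and 139 to 151 CPM in WT, without overlap. At most 1 of 10 was at 0 in a library. The integrin gene Itgax was the largest part of each sum, at 55.7, 30.6 and 35.5 CPM in sST2-KO and 79.7, 78.4 and 71.5 CPM in WT. Of the 10 log2 changes, 8 were negative and 2 positive, with 0 called by edgeR. Only 2 of the 10, Itgax and Dpp4, separated the groups, both lower, against 10% of all genes tested. Dpp4 had 12.6, 7.57 and 8.72 CPM in sST2-KO and 24.9, 21.9 and 24.0 CPM in WT, and DESeq2 called it lower (adjusted p = 0.0015). Zbtb46 and Clec9a, named after their values were seen, overlapped, with log2 changes of -0.039 (SE 0.30) and 0.39 (SE 0.43). The sum was not taken without Itgax and Dpp4. The part of dendritic cells in the Clec10a values was not tested. The neighbouring copy Mgl2, which shares 10.6% of the 50-base windows of Clec10a, had 32.3, 17.8 and 18.6 CPM in sST2-KO and 28.0, 49.1 and 31.5 CPM in WT.

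Promoter sequences of 7 of the 10 genes were matched by symbol in RefSeq's set for GRCm38.p6, from 250 bases before to 50 bases after the start of transcription; Lyve1, Arg1 and Clec10a had no entry. That build differs from the mm39 coordinates of the deposited table. Letters of 3 motifs were searched on both strands: TTCNNNNGAA for STAT6, GAGGAAG for PU.1, the lineage factor of macrophages, and TTGCNNAA for C/EBP, a family of myeloid factors. Mrc1, Chil3 and Retnla are printed because they are the mannose receptor, with the largest log2 change among the abundant resident markers, and the alternative activation genes with a promoter entry. Each is written 5′ to 3′ on the strand of its gene, with matches in capitals.
Mrc1, chr2:14229164-14229463, plus strand: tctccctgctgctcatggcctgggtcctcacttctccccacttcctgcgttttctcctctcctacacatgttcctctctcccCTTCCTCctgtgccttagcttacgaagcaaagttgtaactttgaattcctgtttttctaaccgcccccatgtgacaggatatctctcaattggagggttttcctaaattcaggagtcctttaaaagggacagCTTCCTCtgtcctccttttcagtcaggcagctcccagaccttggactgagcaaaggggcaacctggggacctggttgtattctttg
Chil3, chr3:106167515-106167814, minus strand: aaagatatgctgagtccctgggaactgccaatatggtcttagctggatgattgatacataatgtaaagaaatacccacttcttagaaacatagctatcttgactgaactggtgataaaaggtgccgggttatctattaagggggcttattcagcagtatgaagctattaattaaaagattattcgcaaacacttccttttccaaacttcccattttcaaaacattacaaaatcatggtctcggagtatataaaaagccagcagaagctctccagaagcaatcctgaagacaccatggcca
Retnla, chr16:48842359-48842658, plus strand: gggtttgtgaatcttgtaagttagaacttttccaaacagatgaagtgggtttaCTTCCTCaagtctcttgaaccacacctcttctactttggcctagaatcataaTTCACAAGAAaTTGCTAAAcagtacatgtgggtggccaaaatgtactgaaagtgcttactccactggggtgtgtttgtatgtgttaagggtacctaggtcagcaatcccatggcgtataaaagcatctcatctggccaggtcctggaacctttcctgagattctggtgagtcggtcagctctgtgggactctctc

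Among the 7 genes, Retnla alone held a STAT6 match, TTCACAAGAA, starting at base 106 of the window, 145 bases before the start of transcription. A C/EBP match, TTGCTAAA, followed at base 117, and a PU.1 match lay at base 54 on the opposite strand. Mrc1 held PU.1 matches at bases 83 and 215, both on the opposite strand, and F13a1 held PU.1 matches in its entries as well. The Chil3 window held 0 matches, as the all lower-case line shows. Over all 32851 promoters of the set, 6.95% held a STAT6 match, 13.6% a PU.1 match and 10.8% a C/EBP match. Such matches describe letters only.

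Levels were also ranked per length, as CPM per kilobase of the gene length in the deposited table. Retnla led in both groups, with a median of 98.5 CPM per kilobase in sST2-KO and 145 CPM per kilobase in WT. Lyve1, Mrc1 and F13a1 came next, at 17.0, 11.4 and 14.7 CPM per kilobase in sST2-KO and 26.4, 25.8 and 23.9 in WT, and the ranges of neighbours among them overlapped in both groups. Clec10a followed, between 7.39 and 11.8 CPM per kilobase in sST2-KO and between 11.4 and 14.1 in WT; it overlapped Mrc1 in sST2-KO but not F13a1, its neighbour, in WT. Cd163 came next, with medians of 6.12 CPM per kilobase in sST2-KO and 10.6 in WT, before Folr2, which it overlapped in sST2-KO only, and Chil3, which overlapped Folr2 in both groups. Arg1 and Timd4 were at the bottom of both orders, at 0.739 and 0.444 CPM per kilobase in sST2-KO and 0.966 and 1.76 in WT, and did not separate from each other in either group.

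A general macrophage signal was lower in the same libraries. Of 16 core macrophage genes, 15 had negative log2 changes and 10 separated the groups, all lower, where 46.5% of all genes tested had a negative change and 10% separated the groups in that direction. The median was -0.90, with 0 called by edgeR in either direction. The core genes with the lowest p were Adgre1, which encodes F4/80 (log2 change -1.51, SE 0.22), the integrin gene Itgam (-1.34, SE 0.20) and the pan-leukocyte gene Ptprc (-1.35, SE 0.29), with adjusted p-values from 0.280 to 0.339 in edgeR. DESeq2 called them lower, with adjusted p = 8.8e-06 for Adgre1, 4.5e-05 for Itgam and 0.0066 for Ptprc. It also called Fcgr1 (adjusted p = 0.024) and Csf1r (adjusted p = 0.032) lower, and no other core gene. Lyz2, the lysozyme gene and the only one with a positive change, was named after its values were seen and had 2051, 3152 and 1373 CPM in sST2-KO and 2043, 1844 and 1887 CPM in WT. The groups overlapped, and the highest value was in sST2-KO replicate 2, the library with airway transcripts. The median core gene stood at 63.9, 36.6 and 63.6 CPM in sST2-KO replicates 1 to 3 and at 101, 88.2 and 90.2 CPM in WT replicates 1 to 3.

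Each gene was therefore also expressed relative to the core macrophage level of its own library, as log2 of CPM plus 0.1 minus the median of that value over the 16 core genes. On this scale the groups overlapped for all 10 genes, 5 with a higher and 5 with a lower mean in sST2-KO. Mrc1 stood at 0.89, 0.93 and 0.23 above the core level in sST2-KO replicates 1 to 3 and at 0.71, 1.28 and 0.79 in WT replicates 1 to 3, a difference of -0.24 (exact permutation p = 0.6). Cd163 differed by 0.035 (exact permutation p = 0.9) and F13a1 by 0.022 (exact permutation p = 1). Lyve1 differed by 0.36 (exact permutation p = 0.6) and Clec10a by 0.36 (exact permutation p = 0.2). The tests were two-sided, the 20 possible relabellings cannot give less than 0.1, and over the 10 genes all adjusted p-values were 1, so these values do not show that the genes kept step with the core genes. Measured against Adgre1 alone, the difference was 0.48 for Mrc1, 0.75 for Cd163, 0.74 for F13a1, 0.55 for Folr2, 1.08 for Lyve1 and 1.08 for Clec10a. Measured against Csf1r alone it was -0.21, 0.069, 0.056, -0.14, 0.39 and 0.39 for the same genes.

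**Figure D4:**
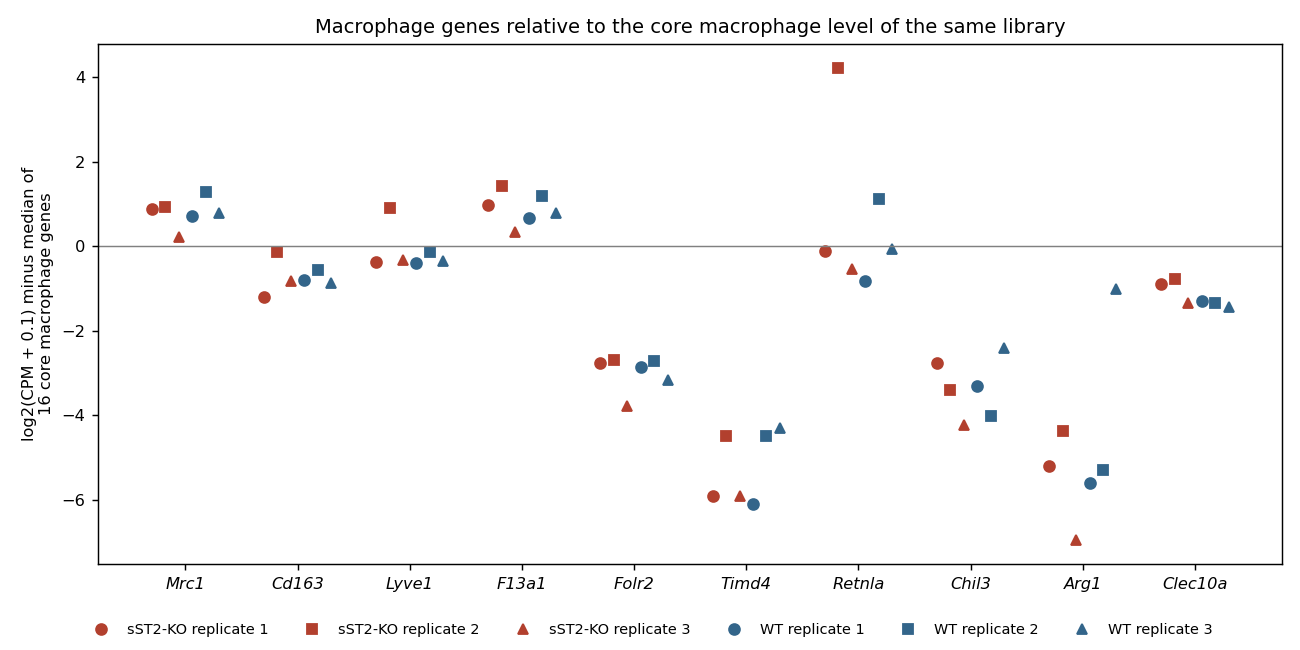
Level of each gene relative to the median of 16 core macrophage genes in the same library (log2 scale), with sST2-KO in red left of WT in blue and marker shapes for replicates. The groups overlap for all 10 genes, and sST2-KO replicate 2 for Retnla (4.23) and WT replicate 3 for Arg1 (-1.0) stand above the other libraries.

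Other genes of the same programmes were described from lists, which were chosen with earlier results of these data known. Of 18 further resident macrophage genes, 14 had negative and 4 positive log2 changes with a median of -0.40. In edgeR 0 passed in either direction, and 5 of 18 separated the groups, all lower, against 10% of all genes tested. Fcrls, an Fc receptor-like gene of macrophages and microglia, had 35.2, 22.5 and 24.9 CPM in sST2-KO and 73.7, 66.4 and 64.5 CPM in WT (log2 change -1.31, SE 0.21, edgeR adjusted p = 0.293, DESeq2 adjusted p = 0.00013). The chemokine Ccl8 had 46.0, 24.3 and 24.4 CPM in sST2-KO and 115, 37.5 and 84.6 CPM in WT, with overlap. Stab1, the scavenger receptor stabilin, and Cd5l, the apoptosis inhibitor of macrophages, were named after their values were seen and stood near 0, at -0.12 (SE 0.24) and -0.031 (SE 0.47).

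Of 24 further genes of alternative activation, 21 were tested, with 12 negative and 9 positive log2 changes and a median of -0.070. In edgeR 0 passed in either direction, and 3 of 21 separated the groups, all lower, against 10% of all genes tested. The scavenger receptor Msr1 had 29.8, 17.4 and 20.3 CPM in sST2-KO and 59.7, 51.6 and 52.7 CPM in WT (log2 change -1.28, SE 0.23, edgeR adjusted p = 0.335, DESeq2 adjusted p = 0.0011). The lipoxygenase Alox15 had 0.682, 39.4 and 0.931 CPM in sST2-KO and 0.417 to 0.957 CPM in WT, so its log2 change of 4.30 came from the library with airway transcripts. Cd200r1, an inhibitory receptor, had a log2 change of -1.21 (SE 0.47). Adjusted p-values of Alox15 and Cd200r1 were 0.442 and 0.443 in edgeR.

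Of 14 genes of the IL-4, IL-13 and IL-33 signal, 13 were tested, with 10 negative and 3 positive log2 changes, a median of -0.094 and 0 passing in edgeR. Il33 had 51.2, 93.6 and 46.7 CPM in sST2-KO and 217, 132 and 162 CPM in WT (log2 change -1.42, SE 0.33, edgeR adjusted p = 0.354, DESeq2 adjusted p = 0.0088). Il13, Il4 and Stat6 were named after their values were seen. Il13 had 1 count in sST2-KO replicate 1 and 0 in the other 5 libraries. Il4 had 2.27, 3.76 and 3.79 CPM in sST2-KO and 1.99, 2.55 and 1.61 CPM in WT, with overlap. Stat6 had a log2 change of -0.070 (SE 0.20).

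The list of classical activation, the inflammatory state set against the alternative one, had 16 of 17 tested genes with negative log2 changes and a median of -1.25. In edgeR 0 passed, and 6 of 17 separated the groups, all lower, against 10% of all genes tested. The costimulatory ligand Cd86 had 7.73, 5.34 and 5.06 CPM in sST2-KO and 19.3, 17.1 and 13.2 CPM in WT (log2 change -1.45, SE 0.29, edgeR adjusted p = 0.339, DESeq2 adjusted p = 0.0014). The cytokine Il6 had 1.48, 1.73 and 0.466 CPM in sST2-KO and 15.9, 4.23 and 12.5 CPM in WT (log2 change -3.13, SE 0.67, edgeR adjusted p = 0.339, DESeq2 adjusted p = 0.00045). The difference between the lists was not tested.

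**Figure D5:**
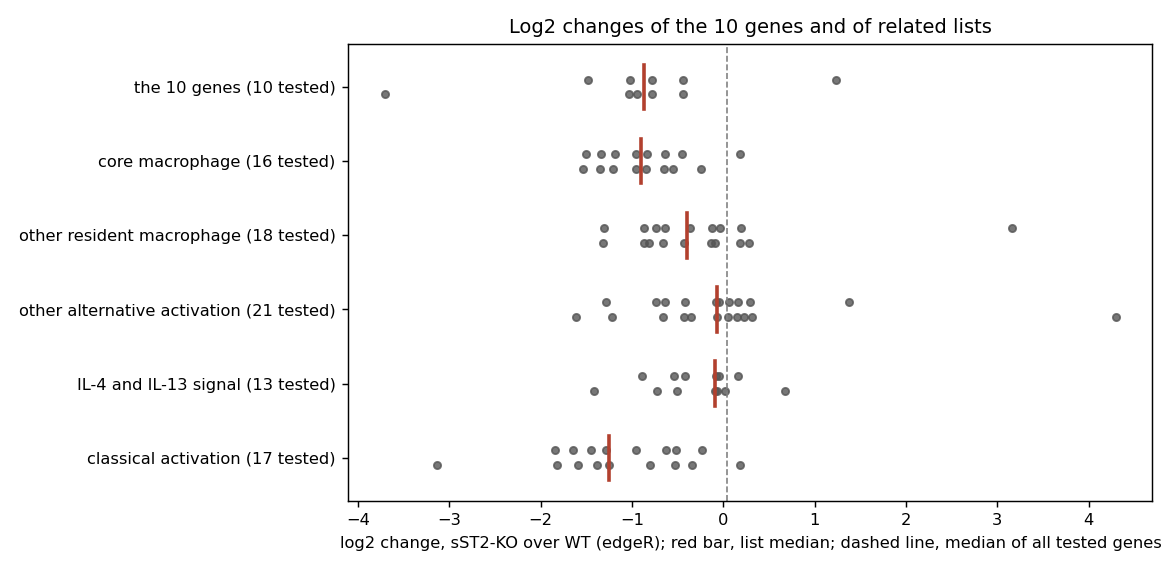
Log2 changes, sST2-KO over WT, of the tested genes of 6 lists, with a red bar at each list's median and a dashed line at the median of all tested genes (0.042). The medians are -0.86 for the 10 genes, -0.90 for core macrophage genes, -0.40 for other resident genes, -0.070 for other alternative activation genes, -0.094 for the IL-4 and IL-13 signal and -1.25 for classical activation.

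The per-library pattern of the 10 genes was summarised by centring the log2 CPM of each gene on its mean over the 6 libraries and taking the median over genes. It was -0.23, -0.46 and -0.81 in sST2-KO replicates 1 to 3 and 0.36, 0.56 and 0.25 in WT replicates 1 to 3, without overlap. Of 13703 other named protein-coding genes, those among the closest to this pattern by root mean square difference over the 6 libraries included Emp1 (0.10), Steap3 (0.10), Tgfbi (0.11) and C1s1 (0.12). Closest to Mrc1 were Rab8b (0.038), Dab2 (0.088) and Lilrb4b (0.10). Rab8b had 57.4, 34.4 and 34.2 CPM in sST2-KO and 75.9, 104 and 72.0 CPM in WT, so that WT replicate 2 was the highest library for it as for Mrc1.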

How the data were processed

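RNA-seq of 3 sST2-KO and 3 WT mouse aortas was used. Raw counts by Ensembl gene were deposited in 1 table with symbols, coordinates and lengths, on build mm39 per the submitters' processing notes. Which aligner and counting program were used, with which strand setting and annotation, is not given in the sources used here. Samples were grouped by title and columns matched by library name.

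Testing used edgeR 4.0.16 in R 4.3.3 (filterByExpr with minimum count 10 and minimum total 15, TMM, glmQLFit, glmQLFTest), with Benjamini-Hochberg adjustment over 16377 genes and a threshold of 0.05. The SE is the size of the log2 change divided by the square root of F. DESeq2 1.42.0, limma-voom (limma 3.58.1), other scalings and filters, a replicate block and left-out libraries were alternatives. The tests were tried on simulated counts. Floors cover counting error only. Libraries differed pairwise by at least 6.55 times counting noise (median squared difference), so each counted once.

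The genes and lists were chosen with earlier results of these data known. By the naming rule, the 10 genes, up to 3 genes per list with the lowest p, abundant markers of other cell types, close copies and the most alike genes are named; other genes are said to be named after their values were seen. Some genes that the rule names are not reported here. Transcript windows came from GENCODE M21 and promoters from RefSeq.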

Additional observations from a re-analysis of the deposited data

How the results depend on the processing

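Of the 10 log2 changes, 9 kept their sign under all 15 alternatives run, and Retnla did not: its log2 change was -1.13 without sST2-KO replicate 2 and -1.29 without that library and WT replicate 3 together, where it was 1.23 with all libraries; leaving out 1 library at a time gave -1.13 to 1.84. Other scalings put the median of all genes at 0.040 (RLE) and 0.0053 (upper quartile), against 0.042 with TMM. The size of the Arg1 change rested on WT replicate 3, at -0.72 without it, and that of Chil3 ran from -0.31 to -1.71. WT replicate 2 was the highest library for Mrc1, Cd163, Lyve1 and F13a1. Without it their log2 changes were -0.90, -0.75, -0.43 and -0.68. Calls depended on the tool. The count of the 10 genes called lower was 0 in edgeR and 2 in DESeq2, and DESeq2 called 223 genes lower and 58 higher in all, where edgeR called 0 and 0; the cause was not tested. Leaving out 1 library at a time, edgeR called 0 to 1 genes lower in all (the 1 without sST2-KO replicate 2) and 0 of the 10. Of the 10 genes, 6 to 8 then separated the groups, all lower, as did 13.1% to 17.4% of all genes tested, and the median log2 change of the 10 was -0.74 to -1.14. Deviations of same-numbered libraries from their group means correlated by 0.15, 0.046 and -0.087. The same correlation was not computed for differently numbered libraries, so these values cannot tell whether the numbers pair the samples. With a replicate block 0 of the 10 genes and 0 genes in all were called, and the median log2 change of the 10 was -0.90. Relative to the core macrophage genes, the difference took both signs over the alternatives for 8 of the 10 genes and 1 sign for Clec10a (0.20 to 1.08) and Arg1 (-0.062 to -2.36). Depth limited Timd4 and Arg1 most, with as few as 14 and 6 counts in a library.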
